A study of Mus musculus with 12 samples.

Results

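Messages of 9 genes that carry, export or take up lipids and fat-soluble molecules were followed in ribosome-bound and total RNA of mouse forebrain: Apoe, Clu, Abca1, Lrp1, Lrp4, Fabp7, Ttpa, Npc2 and Ttr. The genes were taken by name from a list and were matched to the Ensembl identifiers of the count files. They are 9 of 41388 identifiers, and all 9 were among the 13364 genes with enough counts to be tested. They were selected on values of these same libraries, since the list was drawn up with the levels and fold changes of all 4 groups known, and no threshold or single comparison behind it is recorded. The levels and fold changes of the 9 genes are therefore given as a description, with intervals. Where the fit across all genes called a member, the call is counted beside the share of all genes called, and nothing is read from that count.

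The mice were C57/Bl6 at postnatal day 21 and carried the transgene Aldh1l1::RPL10a-eGFP, in which the Aldh1l1 promoter drives a ribosomal protein fused to a green fluorescent protein, mainly in astrocytes. Translating ribosome affinity purification (TRAP) captures those tagged ribosomes with the RNA bound to them. There were 4 groups of 3 libraries: cortex input (RNA before the purification), cortex TRAP, synaptoneurosome input (a sucrose-gradient layer of pinched-off synapses and adjoining processes) and PAP TRAP (peripheral astrocyte processes, the purification from that layer). All groups share the strain, the age, the tissue source (cortex and hippocampus) and the treatment with cycloheximide at 1 ug/mL and TTX at 1 mM, so no group is untreated and none lacks the transgene. The labels call every library astrocytes, also the inputs, and give 1 extract protocol for all 12, so the handling that set the cortex groups apart from the layer rests on the source names. Sex, and whether replicates came from separate animals or pools, are not stated, so the spread between replicates may be technical. The comparisons ask which messages sit on astrocyte ribosomes, and which of them are found on ribosomes of the synaptic layer.

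Astrocytes are the main makers of the lipoprotein particles of brain. They secrete apolipoprotein E (Apoe) and clusterin (Clu, also called apolipoprotein J), and the membrane transporter Abca1 loads these proteins with cholesterol and phospholipid. Neighbouring cells take the particles up through receptors of the low-density lipoprotein receptor family such as Lrp1. Inside the cell, small binding proteins carry single lipids: Fabp7 fatty acids, Npc2 cholesterol within lysosomes and Ttpa alpha-tocopherol, the main form of vitamin E. Ttr (transthyretin) is a secreted carrier of thyroid hormone and of retinol-binding protein.

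The libraries held 4918113 to 17553985 counts on genes, of which mitochondrial genes took 1.03% to 91.9% and left 1423296 to 7777763 counts on nuclear genes, fewest in synaptoneurosome input. Levels below are normalized CPM, in which counts are divided by a library total scaled with TMM factors (edgeR's trimmed mean method) so that libraries can be compared. The labelled cell type was checked against 15 astrocyte markers, none of which was at 0 in any library. Their summed level was 2874 to 3383 normalized CPM in cortex input, 31899 to 43466 in cortex TRAP, 19609 to 21113 in synaptoneurosome input and 24378 to 48292 in PAP TRAP, where replicate 2 was the highest. The summed level of 15 neuron markers was 7759 to 9483 in cortex input, 1277 to 1469 in cortex TRAP, 7960 to 10755 in synaptoneurosome input and 10308 to 15757 in PAP TRAP. For 12 oligodendrocyte markers it was 1585 to 1622, 279 to 378, 2778 to 3320 and 3964 to 5584 in the same order. For 15 microglia markers it was 69.3 to 84.6, 20.7 to 37.2, 389 to 726 and 159 to 227. PAP TRAP thus held neuron and oligodendrocyte messages at levels above those of cortex TRAP. Against its own input, its oligodendrocyte sums were higher without overlap, its neuron sums overlapped, and its microglia sums were lower. The purification from the synaptic layer thus did not lower the neuron and oligodendrocyte sums, unlike that from cortex. Between the lowest and the highest library, 8 oligodendrocyte precursor markers summed to 79.8 and 139.9, 11 endothelial and mural markers to 17.7 and 67.8, and 8 ependymal markers to 0 and 9.97 normalized CPM. The sum of 8 meningeal fibroblast markers was 115 to 206 in cortex input, 380.2 to 593 in cortex TRAP, 181 to 378 in synaptoneurosome input and 99.3 to 198 in PAP TRAP, although of 7 tested only 1 was called higher and 1 lower in cortex TRAP over its input.

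The 2 secreted lipoproteins had the highest levels in cortex TRAP and intermediate levels in PAP TRAP. Apoe (chromosome 7, 19696109 to 19699188, minus strand, in GRCm38) stood at 27.2, 34.4 and 30.6 normalized CPM in cortex input and at 749.5, 652 and 1071 in cortex TRAP. It stood at 132, 176 and 128 in synaptoneurosome input and at 254, 482 and 275 in PAP TRAP. None of the 4 groups overlapped with another, and PAP TRAP replicate 2, the library with the highest astrocyte marker sum, had the highest Apoe of its group. The fitted log2 fold change was 4.74 ± 0.32 (SE, 3 libraries per group) for cortex TRAP over its input, a 26.8-fold higher level with a 95% interval of 16.9 to 42.6. Over the synaptoneurosome input, Apoe in PAP TRAP was 2.32-fold higher (1.55 to 3.46), or 1.21 ± 0.28 on the log2 scale, and 0.87 without PAP TRAP replicate 2. PAP TRAP was 2.44-fold below cortex TRAP (1.64 to 3.65). In bulk samples such as these, fewer cells or processes of a type and less RNA in each cannot be told apart.

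Clu (chromosome 14, 65968483 to 65981547, plus strand) followed the same order. Its normalized CPM was 63.5, 58.3 and 59.5 in cortex input, 1248, 995 and 1156 in cortex TRAP, 283, 327 and 204 in synaptoneurosome input, and 471, 804 and 566 in PAP TRAP. No group overlapped with another, and synaptoneurosome input already lay 4.49-fold above cortex input (3.11 to 6.48). The log2 fold change was 4.23 ± 0.28 for cortex TRAP over input and 1.18 ± 0.25 for PAP TRAP over its input. The level in PAP TRAP was 1.85-fold lower than in cortex TRAP (1.3 to 2.63), a log2 difference of -0.88 that became -0.68 without cortex TRAP replicate 1. Apoe and Clu had the highest correlation of any pair among the 9 genes, with a Pearson r of 0.991 over the 12 libraries, which fall into the 4 groups and so share them.

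Abca1 (chromosome 4, 53030787 to 53159895, minus strand), the exporter that loads both proteins, did not share their order. It stood at 3.99, 12 and 14.4 normalized CPM in cortex input, at 31.3, 44.1 and 67.9 in cortex TRAP, at 49.8, 43.6 and 48.1 in synaptoneurosome input, and at 18.3, 46.5 and 46.5 in PAP TRAP. Only cortex input stood apart, below the other 3 groups, which overlapped. The log2 fold change was 2.24 ± 0.45 for cortex TRAP over input, a 4.72-fold higher level (2.44 to 9.13), and 2.22 ± 0.46 for synaptoneurosome input over cortex input. For PAP TRAP over its input it was -0.35 ± 0.44 (95% interval -1.26 to 0.57), and for PAP TRAP over cortex TRAP -0.36 ± 0.43 (-1.27 to 0.54). The last value was 0.13 without cortex TRAP replicate 3, so its sign depends on 1 library. With offsets corrected for exon length it was -1.20, and it was called in none of 20 alternative fits (smallest adjusted p of these fits 0.0503).

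Promoter sequence was at hand for 5 of the 9 genes: Apoe, Abca1, Lrp1, Fabp7 and Npc2. The 250 bases before the RefSeq start (GRCm38.p6) are shown for the lipid acceptor Apoe, its exporter Abca1 and its receptor Lrp1. These are 3 genes of 1 pathway whose levels took different orders over the groups. Apoe had 3 start windows, of which only the outermost is shown and described. The windows are chr7:19699189-19699438, chr4:53159896-53160145 and chr10:127621149-127621398, all on the minus strand, written 5′ to 3′ as the gene is read. Capitals mark matches, on either strand, to the motifs searched.
Apoe: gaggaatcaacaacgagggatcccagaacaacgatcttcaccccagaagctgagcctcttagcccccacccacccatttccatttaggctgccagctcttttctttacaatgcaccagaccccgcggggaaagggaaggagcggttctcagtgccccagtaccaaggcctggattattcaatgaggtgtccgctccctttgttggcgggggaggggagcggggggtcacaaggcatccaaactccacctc
Abca1: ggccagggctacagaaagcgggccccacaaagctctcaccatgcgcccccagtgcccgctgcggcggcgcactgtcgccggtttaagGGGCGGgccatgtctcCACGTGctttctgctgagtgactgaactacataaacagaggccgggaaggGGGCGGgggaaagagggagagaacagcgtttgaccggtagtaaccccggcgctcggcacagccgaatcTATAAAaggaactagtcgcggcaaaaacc
Lrp1: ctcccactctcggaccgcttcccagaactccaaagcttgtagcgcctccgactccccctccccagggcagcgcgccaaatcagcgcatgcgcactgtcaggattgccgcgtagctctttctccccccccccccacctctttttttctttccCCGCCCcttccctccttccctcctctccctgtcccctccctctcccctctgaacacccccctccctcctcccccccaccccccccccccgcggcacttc
The motifs were TATAAA, the core of a TATA box, GGGCGG, a GC box, CACGTG, an E-box, AGGTCA, the half-site of nuclear receptors, and a direct repeat of that half-site with 4 bases between, the arrangement liver X receptors prefer. A repeat would also count as half-sites. The Abca1 window held a TATAAA that begins 29 bases before the start, a CACGTG at 147 and GGGCGG at 163 and 97. The Lrp1 window held 1 GC box, read on the opposite strand at 99 bases before the start, and a longest run of 12 C. None of these motifs was found in the Apoe window, and the exact half-site was in none of the 3 windows. Only exact letters were searched, so half-sites or repeats that depart from them would be missed. Their absence from these windows is therefore not shown. Among 32851 mouse promoter windows of the same length, TATAAA occurred in 12.4%, GGGCGG in 32.7%, CACGTG in 6.02%, AGGTCA in 14% and its spaced repeat in 0.0152%. A match describes the sequence, and binding was not measured.

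The 2 receptors were the only genes of the 9 with a higher mean level in PAP TRAP than in cortex TRAP. Lrp1 (chromosome 10, 127538161 to 127621148, minus strand) is an endocytic receptor for Apoe-bearing particles and many other ligands. It stood at 36.7, 54.6 and 53.1 normalized CPM in cortex input, 76.4, 65.2 and 89.4 in cortex TRAP, 338, 259 and 239 in synaptoneurosome input, and 531, 359.8 and 591 in PAP TRAP. The groups did not overlap. In the main fit the larger step lay between the cortex libraries and the libraries of the synaptic layer rather than between input and TRAP. With offsets corrected for exon length this did not hold for cortex TRAP. It then lay 1.90 above its input on the log2 scale, and PAP TRAP lay 1.16 above it. PAP TRAP was 6.41-fold above cortex TRAP (4.32 to 9.52), a log2 difference of 2.68 ± 0.27, and synaptoneurosome input was 5.78-fold above cortex input (3.90 to 8.58). Over their inputs, cortex TRAP was 1.60-fold higher (1.10 to 2.33) and PAP TRAP 1.77-fold higher (1.22 to 2.58). The cortex value was 0.68 ± 0.26 on the log2 scale and became 0.37 without cortex input replicate 1 and 0.40 without cortex TRAP replicate 3. Between the purifications, 14 of 15 neuron markers (median 2.79) and 9 of 12 oligodendrocyte markers (median 3.01) were also called higher in PAP TRAP, and their part in the Lrp1 level was not tested. An annotated antisense gene, Gm16217, overlaps Lrp1 but shares 0 bases of exon with it.

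Lrp4 (chromosome 2, 91457511 to 91513779, plus strand), a receptor of the same family that binds agrin and also apolipoprotein E, showed both kinds of difference in the main fit. Its normalized CPM was 2.44, 3.46 and 5.26 in cortex input, 23.6, 41.8 and 51.4 in cortex TRAP, 28.9, 26.9 and 33.8 in synaptoneurosome input, and 78.8, 98.1 and 52.7 in PAP TRAP. Cortex TRAP and synaptoneurosome input overlapped, and the lowest PAP TRAP library lay just above the highest cortex TRAP library. Cortex TRAP was 10.5-fold above its input (5.91 to 18.5) and PAP TRAP 2.56-fold above its own (1.51 to 4.34). The log2 difference of PAP TRAP over cortex TRAP was 0.97 ± 0.36. With 1 library left out it ranged from 0.76 without PAP TRAP replicate 2 to 1.37 without cortex TRAP replicate 3. With offsets corrected for exon length it was 0.09 and not called, and the call was lost in 5 of 20 alternative fits.

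**Figure D1:**
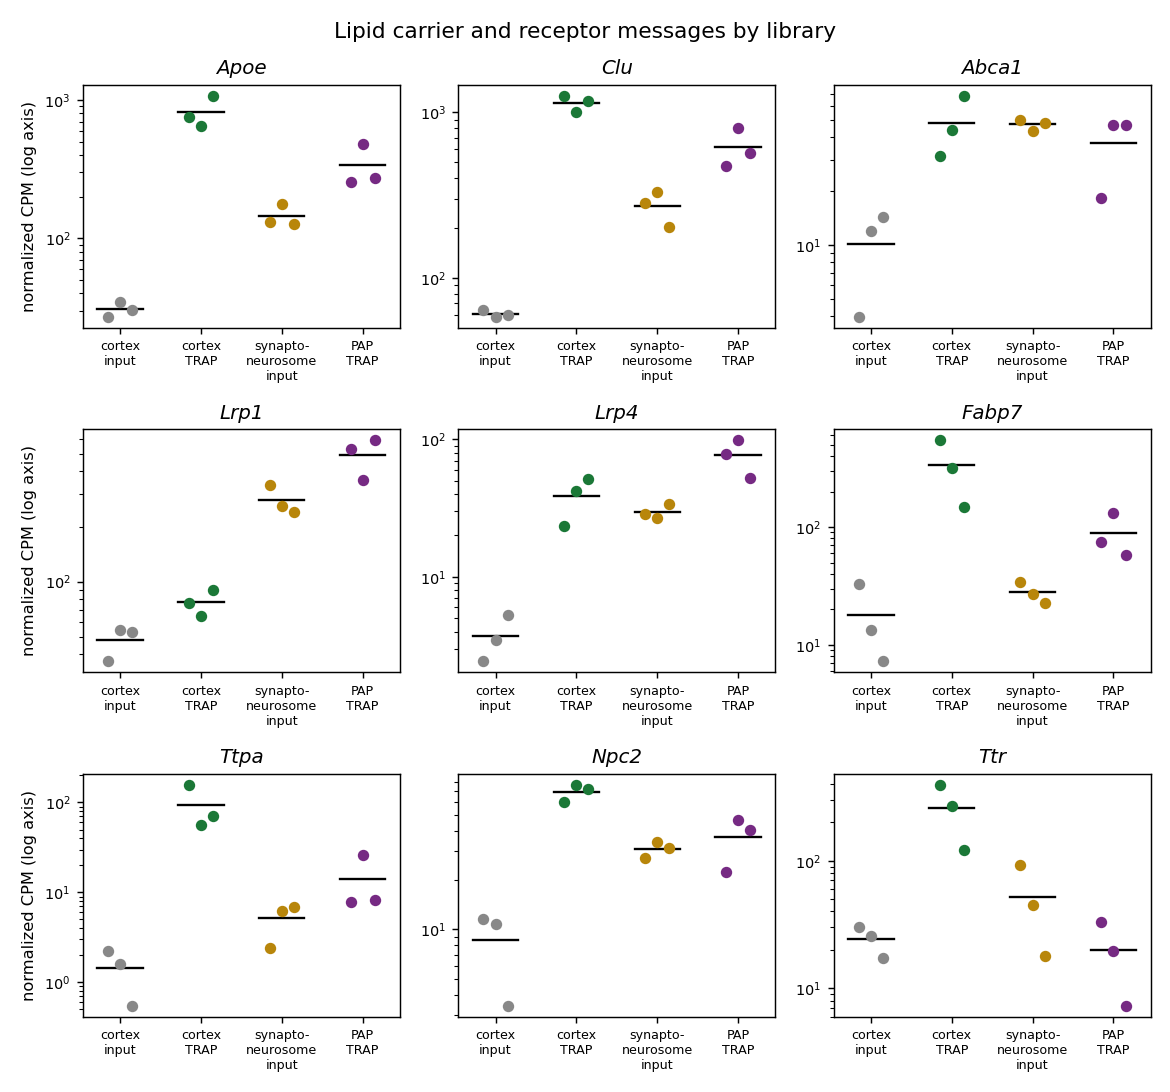
Normalized CPM (log axis) of each of the 9 genes in the 12 libraries, by group; each point is 1 library, ordered by replicate number, and the black line is the mean of 3. Apoe, Clu, Fabp7, Ttpa, Npc2 and Ttr are highest in the 3 cortex TRAP libraries, while Lrp1 and Lrp4 are highest in the 3 PAP TRAP libraries.

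The 3 intracellular carriers had their highest level in cortex TRAP. Fabp7 (chromosome 10, 57784881 to 57788450, plus strand), a fatty acid-binding protein of radial glia and astrocytes, stood at 32.7, 13.3 and 7.27 normalized CPM in cortex input and at 543, 315 and 148 in cortex TRAP. It stood at 34.3, 26.9 and 22.8 in synaptoneurosome input and at 74.7, 133 and 57.9 in PAP TRAP. The inputs overlapped with each other and both TRAP groups lay above them, with a wide spread among the cortex TRAP libraries. Cortex TRAP was 18.9-fold above its input (8.68 to 40.9), and PAP TRAP was 3.17-fold above its own (1.55 to 6.45). PAP TRAP was 3.79-fold below cortex TRAP (1.88 to 7.65), a log2 difference of -1.92 that became -1.26 without cortex TRAP replicate 1. That library also moved the cortex enrichment from 4.24 to 3.57, and without cortex input replicate 1 it was 4.87.

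Ttpa (chromosome 4, 20007938 to 20030785, plus strand), the tocopherol transfer protein, had the fewest counts of the 9 in cortex input. They were 9 to 40 per library, and its normalized CPM was 2.22, 1.60 and 0.55. In cortex TRAP it stood at 157, 56.1 and 70.6, in synaptoneurosome input at 2.43, 6.27 and 6.95, and in PAP TRAP at 7.81, 25.9 and 8.16. All 4 groups were separate, but the lowest PAP TRAP libraries lay just above the highest of their input. PAP TRAP was 2.63-fold above its input (1.15 to 6.04), or 1.40 ± 0.57 on the log2 scale, and 0.60 without PAP TRAP replicate 2. Against cortex TRAP it was 6.77-fold lower (3.03 to 15.1). That log2 difference of -2.76 became -2.05 without cortex TRAP replicate 1 and -3.56 without PAP TRAP replicate 2.

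Npc2 (chromosome 12, 84754562 to 84773152, minus strand) is the soluble lysosomal cholesterol carrier. Relative to its mean, it varied less between replicates in cortex TRAP and synaptoneurosome input than in cortex input and PAP TRAP. Its normalized CPM was 11.5, 10.8 and 3.42 in cortex input, 60.1, 76.3 and 71.6 in cortex TRAP, 27.3, 34.3 and 31.3 in synaptoneurosome input, and 22.4, 46.8 and 40.7 in PAP TRAP. The last 2 groups overlapped, with a log2 difference of 0.24 ± 0.39 (95% interval -0.57 to 1.06). Cortex TRAP was 8.08-fold above its input (4.42 to 14.8), and synaptoneurosome input 3.61-fold above cortex input (2.01 to 6.49). PAP TRAP lay 1.89-fold below cortex TRAP (1.08 to 3.31), with no overlap.

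Ttr, on chromosome 18, had the largest difference between the 2 purifications among the 9 genes. Its normalized CPM was 30.4, 25.9 and 17.2 in cortex input, 393, 268 and 121 in cortex TRAP, 93.0, 44.8 and 17.8 in synaptoneurosome input, and 32.8, 19.8 and 7.30 in PAP TRAP. Every cortex TRAP library lay above every other library, and the other 3 groups overlapped with one another. In all 4 groups the level fell from replicate 1 to 2 to 3, and at each replicate number PAP TRAP lay below its input. The sum of the meningeal fibroblast markers was also higher in every cortex TRAP library than in any other, but narrowly. It was 380.2 in cortex TRAP replicate 1 and 378.3 in synaptoneurosome input replicate 3. Of 7 such markers tested, 3 were called higher and 2 lower in PAP TRAP than in cortex TRAP, with a median log2 difference of 1.58. Their part in the Ttr level was not tested. Ttr in PAP TRAP was 13.1-fold below cortex TRAP (5.63 to 30.3), a log2 difference of -3.71 ± 0.58. For PAP TRAP over its input the log2 difference was -1.37 ± 0.54, and -0.63 without synaptoneurosome input replicate 1. Ttr was not called there, but was in 2 of 20 alternative fits, among them the one with a block for the replicate number. Synaptoneurosome input over cortex input was 1.07 ± 0.53, and 0.35 without that same library.

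Ttr is made in great amounts by choroid plexus epithelium, so 15 other markers of that tissue were read beside it. Enpp2, which oligodendrocytes also express, made up most of their sum, at 54.8 to 394 normalized CPM. The other 14 markers summed to 12.8, 10.9 and 10.1 normalized CPM in cortex input and to 29.9, 23.1 and 6.69 in cortex TRAP. They summed to 22.5, 27.8 and 15.4 in synaptoneurosome input and to 15.9, 13.1 and 9.64 in PAP TRAP. In cortex input, cortex TRAP and PAP TRAP the order of the libraries by Ttr was that of their marker sums, and in synaptoneurosome input it was not. Of the 14 markers, 6 were at 0 counts in all 3 PAP TRAP libraries (Aqp1, Calml4, Clic6, Kcne2, Otx2 and Tmem72), 6 in synaptoneurosome input, and 0 in cortex input or cortex TRAP. Synaptoneurosome input had the fewest nuclear counts (1423296 to 2476076). The 6 markers at 0 in it stood at only 0.02 (Aqp1) to 0.65 (Calml4) normalized CPM in cortex input. Their counts of 0 in synaptoneurosome input therefore need not mean a lower level. Of the 15 markers, 9 had enough counts to be tested. Between the purifications, 3 of these were called lower in PAP TRAP (Calml4, Clic6 and Otx2) and 2 higher (Col8a1 and Enpp2). The part of choroid plexus RNA in the Ttr level was not tested.

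**Figure D2:**
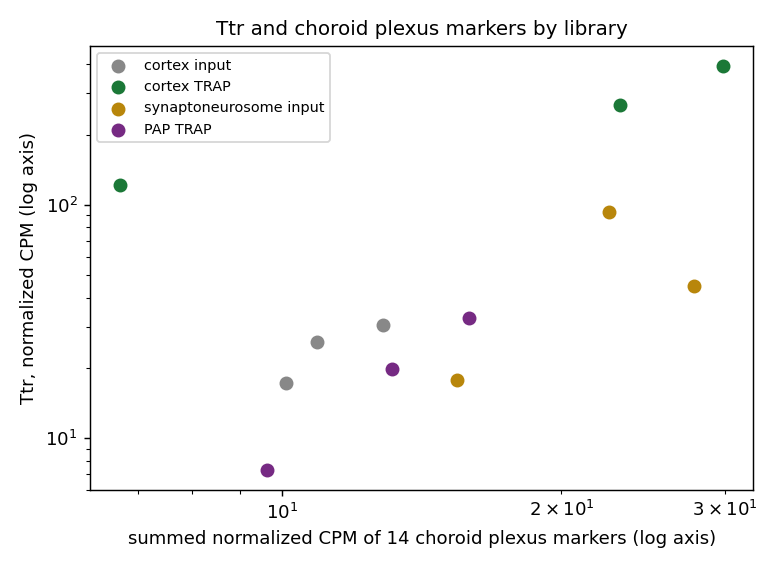
Level of Ttr against the summed level of 14 choroid plexus markers (Ttr and Enpp2 left out), both in normalized CPM on log axes; each point is 1 of 12 libraries, coloured by group. The cortex TRAP libraries range from 6.69 to 29.9 in the marker sum and from 121 to 393 in Ttr.

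Against cortex input, all 9 genes were called higher in cortex TRAP (edgeR adjusted p under 0.05), where 35.4% of all genes tested were called, 15.9% higher and 19.5% lower. The groups did not overlap for any of the 9, as for 27.4% of all genes in that direction. Their median log2 fold change was 3.41, against 0.05 over all genes tested and 4.11 over the 15 astrocyte markers, all of which were called higher. Lrp1, the lowest of the 9 at 0.68, lost its call in 16 of 20 alternative fits. These counts say nothing independent about the list, which was chosen with such results known.

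In synaptoneurosome input, 6 of the 9 (Apoe, Clu, Abca1, Lrp1, Lrp4 and Npc2) were called higher than in cortex input, where 9.32% of all genes tested were called and 7.26% called higher. The log2 differences ran from 0.65 for Fabp7 to 3.01 for Lrp4, with a median of 2.17 against -0.14 over all genes. Ttpa was 3.61-fold higher (1.49 to 8.72) without overlap, and Fabp7 and Ttr overlapped between the 2 inputs. Of the astrocyte markers 12 of 15 were called higher, with a median of 1.68, and of the microglia markers 8 of 15, with a median of 2.54. Microglia also express Apoe, Abca1 and Npc2, and their part in these levels was not tested.

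Within the synaptic layer, 3 of the 9 (Apoe, Clu and Lrp4) were called higher in PAP TRAP than in its input, where 4.53% of all genes tested were called and 3.0% called higher. Groups were separate and higher in PAP TRAP for 6 of the 9, as for 12.2% of all genes. The median log2 difference was 1.18, against 0.06 over all genes and 0.79 over the astrocyte markers, of which 4 of 15 were called higher. Neuron markers had a median of -0.30 (1 of 15 called higher, 2 lower) and oligodendrocyte markers 0.12 (1 of 12 higher, 2 lower). In cortex TRAP over cortex input these medians were -3.11 and -2.46. The Apoe call was lost without synaptoneurosome input replicate 1 (1.15) or 3 (1.14), or PAP TRAP replicate 2. The Lrp4 call was lost in 8 of 20 alternative fits, among them those without any 1 of the 3 synaptoneurosome inputs.

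Between the 2 purifications, 7 of the 9 were called: Lrp1 and Lrp4 higher in PAP TRAP, and Apoe, Clu, Fabp7, Ttpa and Ttr lower. Of all genes tested 33.9% were called, 19.3% higher and 14.6% lower. The median of the 9 was -0.92, against -0.28 over all genes and -1.34 over the astrocyte markers, 12 of which were called lower and 0 higher. Neuron markers were called higher in 14 of 15 cases and oligodendrocyte markers in 9 of 12. Groups were separate for 8 of the 9, with 2 higher, as for 22.2% of all genes, and 6 lower, as for 26.1%. With offsets corrected for exon length, 3 of the 7 calls remained (Lrp1, Ttpa and Ttr). The Clu call was also lost with these 2 groups fitted alone (-0.71) and without cortex TRAP replicate 1 or 3 (-0.72), and the Lrp4 call without cortex input replicate 2 (0.98), cortex TRAP replicate 1 (0.84) or PAP TRAP replicate 1 (0.96) or 2. The comparisons share libraries, since cortex TRAP and PAP TRAP each enter 2 of them, so their values stand side by side and are no support for each other. In the difference of both enrichments over input, 8 of the 9, all but Lrp1, were called lower in the synaptic layer, where 20.2% of all genes tested were called, 12.9% higher and 7.32% lower. With offsets corrected for exon length, Lrp1 was called lower as well, at -1.25 in place of 0.15.

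**Figure D3:**
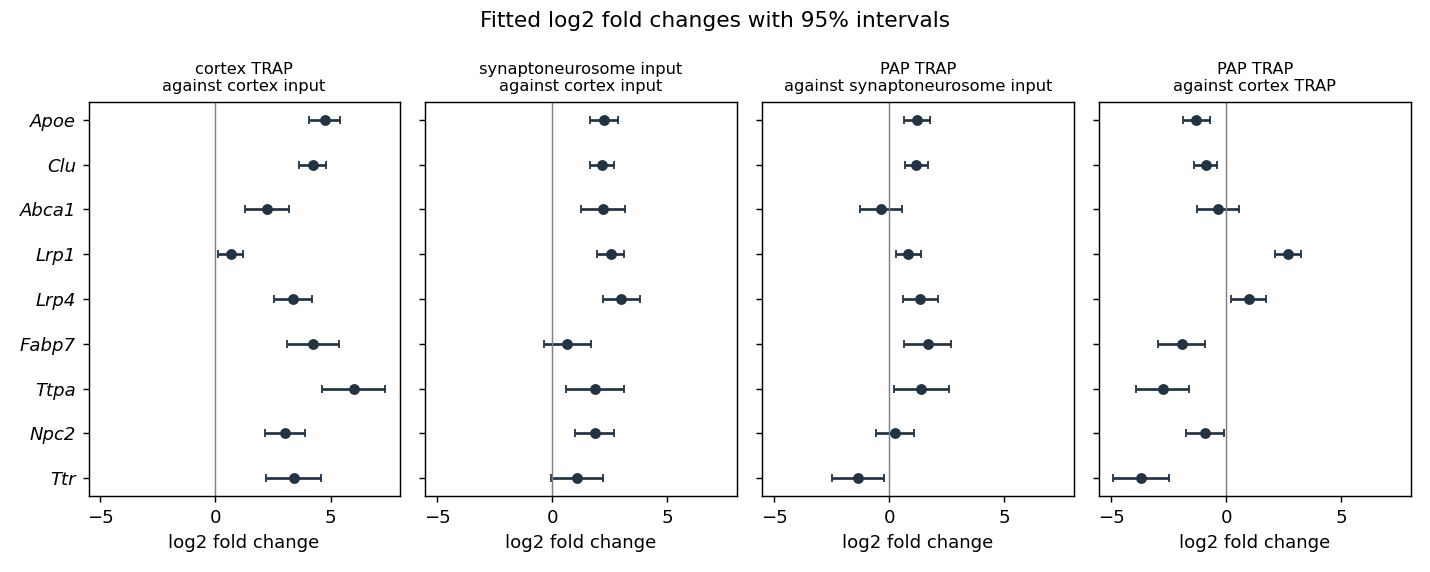
Fitted log2 fold changes of the 9 genes in 4 comparisons between groups of 3 libraries; points are estimates, bars are 95% intervals and the grey line marks no difference. In PAP TRAP against cortex TRAP only Lrp1 (2.68) and Lrp4 (0.97) lie above 0 with their intervals.

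Compared per kilobase of summed exon, which sets levels of different genes roughly side by side, Apoe and Clu led in both purifications. Summed exon can exceed the length of a message, so close ranks are not settled. For Clu it was 3437 bp against a transcript of 1810, and for Apoe 2138 against 1408. In cortex TRAP, Apoe stood at 385 ± 103 normalized CPM per kb (mean ± SD, n = 3), Clu at 330 ± 37.3, Fabp7 at 268 ± 158 and Ttr at 220 ± 115, and the ranges of these 4 overlapped. Far below them came Ttpa at 27.1 ± 15.6 and Npc2 at 12.7 ± 1.53, which did not overlap, and then Abca1 at 4.61 ± 1.79, Lrp1 at 4.35 ± 0.684 and Lrp4 at 3.71 ± 1.34, which did. In PAP TRAP, Clu stood at 179 ± 49.9, Apoe at 158 ± 59.0 and Fabp7 at 70.8 ± 31.5. Lrp1 came next at 27.9 ± 6.77 and overlapped with Ttr at 16.8 ± 10.8, so the receptor moved from the lower end of the order to its middle. Lrp4 (7.29 ± 2.17), Npc2 (6.73 ± 2.34), Ttpa (4.0 ± 2.96) and Abca1 (3.58 ± 1.58) followed, each overlapping with its neighbour.

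The genes differ widely in length, and fold changes followed length across the whole transcriptome. The summed exon length was 1186 bp for Ttr, 1250 for Fabp7, 2138 for Apoe, 3437 for Clu, 3488 for Ttpa, 5438 for Npc2, 10363 for Abca1, 10504 for Lrp4 and 17717 for Lrp1, which is longer than 98.5% of the genes tested. With all genes tested split by length into 5 bins of about equal size, from the shortest to the longest, the median log2 difference of PAP TRAP over cortex TRAP was -1.17, -0.75, -0.23, 0.06 and 0.70. For cortex TRAP over cortex input it was 0.88, 0.42, -0.0042, -0.20 and -0.70. For PAP TRAP over its input, medians by length lay between 0.01 and 0.09.

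When the fit was repeated with offsets corrected for exon length, an alternative chosen after the data had been seen, 3 of the 9 were still called between the purifications. Lrp1 was higher in PAP TRAP by 1.16 on the log2 scale, in place of 2.68, while Ttpa stood at -2.38 and Ttr at -2.57. The values that were no longer called were -0.47 for Apoe, -0.47 for Clu, -0.79 for Fabp7 and 0.09 for Lrp4, and Abca1 moved to -1.20. For cortex TRAP over cortex input the same correction gave 1.90 for Lrp1, 2.99 for Abca1, 4.15 for Lrp4, 3.51 for Fabp7 and 2.63 for Ttr, all still higher. With offsets corrected for GC content, the 3 calls in PAP TRAP over its input were lost, with 0.67 for Apoe, 0.82 for Clu and 1.02 for Lrp4.

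**Figure D4:**
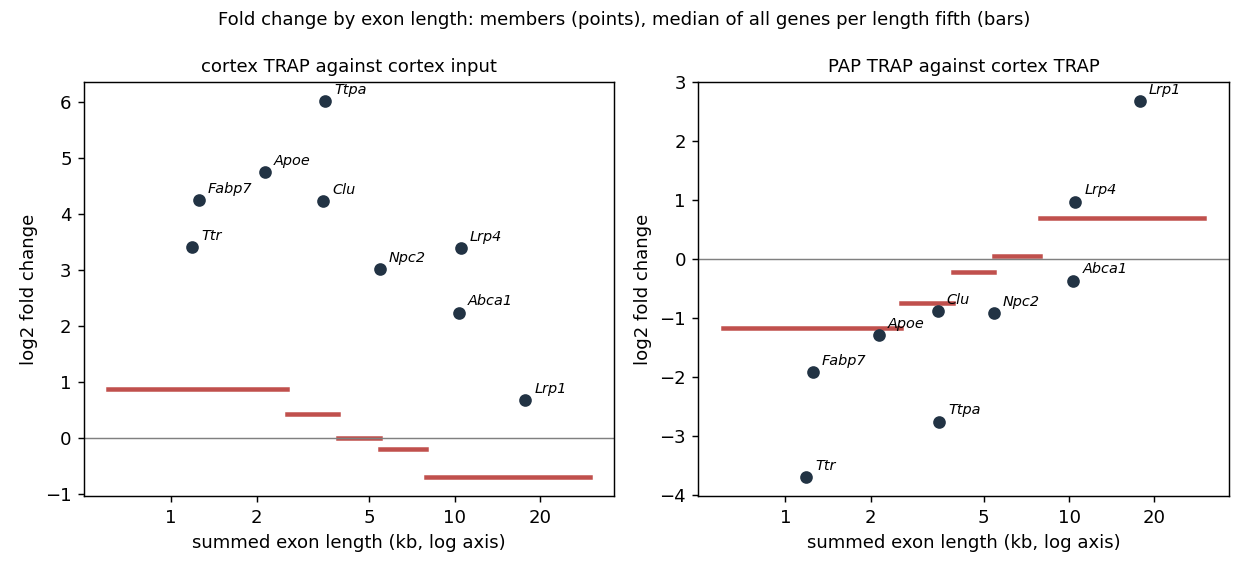
Log2 fold change against summed exon length (kb, log axis) for the 9 genes (points) with the median over all genes tested in each of 5 length bins (bars, the outer 2 drawn short of the shortest and longest genes). In PAP TRAP against cortex TRAP the bars climb from -1.17 to 0.70, with Ttr and Ttpa far below the bar of their length and Lrp1 far above its own.

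Genes whose levels over the 12 libraries were most like those of each member were sought among 6703 genes with enough signal, by Pearson r of log2 normalized CPM. The libraries fall into 4 groups, so high values of r are easily reached. Nearest to Apoe came Clu (0.991), the glutamate transporter Slc1a3 (0.991) and the selenium carrier Selenop (0.990), and nearest to Clu came Ndrg2 (0.997), Aldh1a1 (0.995) and Ctso (0.992). For Lrp4 they were Itih5 (0.972), the glutamate transporter Slc1a2 (0.972) and Pcdhgc4 (0.969). Fabp7 was most like Fermt2 (0.977), S1pr1 (0.965) and Appl2 (0.964), Ttpa most like Fbxo2 (0.978), Car2 (0.974) and Ak3 (0.971), and Npc2 most like Bmpr1b (0.978), Abcd3 (0.969) and Slco1c1 (0.966). Several of these neighbours are known as astrocyte genes. Those of Lrp1 were Ptprt (0.963), Shc3 (0.959) and Cdh2 (0.953), and those of Abca1 were Galnt1 (0.955), Slc13a5 (0.921) and Ankib1 (0.919). Ttr had the weakest leading neighbour, and all 3 of its neighbours, Atp5j2 (0.931), Uqcrh (0.924) and Ndufa6 (0.922), encode mitochondrial respiratory chain or ATP synthase proteins. Among the members themselves, Lrp1 had an r of 0.03 with Ttpa and -0.37 with Ttr.

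Other genes of lipid carriage were read from 9 lists fixed by name, which hold 121 genes, of which 94 were tested. Of these 94, 29 were called higher and 24 lower in cortex TRAP than in cortex input, with a median log2 fold change of 0.08 (over all genes 15.9% and 19.5%). The set was thus split between higher and lower, while all 9 members, chosen with such values known, were higher. In synaptoneurosome input, 23 of 94 were called higher than in cortex input and 0 lower (over all genes 7.26% and 2.07%), a count that was 9 without cortex input replicate 1. In PAP TRAP over its input 4 were called higher and 1 lower (3.0% and 1.53% over all genes). In PAP TRAP over cortex TRAP 29 were higher and 15 lower (19.3% and 14.6% over all genes).

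Among apolipoproteins and lipoprotein-remodelling enzymes, 3 of 6 tested rose in cortex TRAP over cortex input and 1 fell (over all genes 15.9% and 19.5%). Lcat, which esterifies cholesterol on lipoprotein particles, stood at 4.76, 5.58 and 5.01 normalized CPM in cortex input, 199, 168 and 160.5 in cortex TRAP, 6.68, 8.66 and 25.9 in synaptoneurosome input, and 36.0, 44.7 and 47.6 in PAP TRAP. Its order over the groups was that of Apoe and Clu. It was 34.3-fold higher in cortex TRAP than in its input (log2 5.10 ± 0.43, edgeR adjusted p = 3.5e-08) and 4.12-fold lower in PAP TRAP than in cortex TRAP (log2 -2.04 ± 0.37, edgeR adjusted p = 0.000296). With offsets corrected for exon length the first value was 4.34 and the second -0.84, a call that was lost. Over the synaptoneurosome input it was 3.05-fold higher (edgeR adjusted p = 0.0207), a log2 difference of 1.61 that became 2.49 without synaptoneurosome input replicate 3 and was not called without synaptoneurosome input replicate 1 or 2 or PAP TRAP replicate 2 or 3. Lpl, which releases fatty acids from lipoproteins, went the other way, with 7, 2 and 0 counts in cortex TRAP against 153, 102 and 89 in cortex input and 111, 46 and 59 in PAP TRAP.

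Of 11 lipid exporters of the ABC family tested beside Abca1, 0 rose and 4 fell in cortex TRAP over cortex input, while 7 rose and 0 fell in PAP TRAP over cortex TRAP, where their median log2 difference was 2.51. Over all genes, 19.5% were lower in the first comparison and 19.3% higher in the second, and in the bin of the longest genes 36.5% and 38.1%. Abcg1, a sterol exporter, was 10.8-fold lower in cortex TRAP than in cortex input (log2 -3.43 ± 0.68, edgeR adjusted p = 0.000544), and its log2 difference was -5.61 without cortex TRAP replicate 3. Abca2, abundant in oligodendrocytes, was 9.36-fold higher in PAP TRAP than in cortex TRAP (log2 3.23 ± 0.35, edgeR adjusted p = 6.67e-07). Its levels were 9.69, 23.7 and 21.6 normalized CPM in cortex TRAP and 190.3, 117 and 207 in PAP TRAP, against 136, 93.5 and 103 in synaptoneurosome input. Abca3 was 4.97-fold higher (log2 2.31 ± 0.31, edgeR adjusted p = 1.21e-05). With offsets corrected for exon length, Abca2 and Abca3 stood at 2.58 and 1.55, both still called. Oligodendrocyte markers were called higher in PAP TRAP than in cortex TRAP in 9 of 12 cases and neuron markers in 14 of 15, and their part in these levels was not tested.

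Of 21 lipoprotein receptors and adaptors tested, 9 rose and 4 fell in PAP TRAP over cortex TRAP, where 19.3% of all genes were higher and 14.6% lower, and 38.1% of the longest bin were higher. Neuron markers rose in 14 of 15 cases, and their part was not tested. Reln, the secreted ligand of 2 such receptors and a product of interneurons, had the largest rise among those called, at 0.51, 0.58 and 3.82 normalized CPM in cortex TRAP and 135, 100.1 and 273 in PAP TRAP. Its log2 difference was 6.66 ± 0.64 (edgeR adjusted p = 1.54e-07), 8.41 without cortex TRAP replicate 3 and 4.84 with offsets corrected for exon length. Lrp1b, the closest relative of Lrp1, was 26.0-fold higher (log2 4.70 ± 0.44, edgeR adjusted p = 9.46e-08), 5.51 without cortex TRAP replicate 3 and 2.86 with offsets corrected for exon length. In cortex TRAP against cortex input it fell (log2 -2.74 ± 0.40, edgeR adjusted p = 2.43e-05), with -3.57 without cortex TRAP replicate 3 and -1.28 with those offsets. The endocytic adaptor Dab2 was lower in PAP TRAP than in cortex TRAP (log2 -2.21 ± 0.57, edgeR adjusted p = 0.00577). Lrp10 was 10.6-fold higher in cortex TRAP than in its input, and the sorting receptor Sort1 was 3.51-fold lower there, with edgeR adjusted p of 0.000225 and 3.21e-05.

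Of the partners of Lrp4, 3 of 7 listed were tested. Agrn (agrin), its ligand at the neuromuscular junction, stood at 16.1, 14.7 and 23.4 normalized CPM in cortex input, 13.8, 1.91 and 2.03 in cortex TRAP, 49.8, 33.1 and 37.4 in synaptoneurosome input, and 46.4, 40.5 and 60.1 in PAP TRAP. It was 8.20-fold higher in PAP TRAP than in cortex TRAP (log2 3.04 ± 0.58, edgeR adjusted p = 0.000453), 4.75 on the log2 scale without cortex TRAP replicate 1 and 2.31 with offsets corrected for exon length. Dok7, an intracellular adaptor of the same pathway, was 7.69-fold higher in cortex TRAP than in cortex input (log2 2.94 ± 0.77, edgeR adjusted p = 0.00522).

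Among the intracellular fatty acid and retinoid carriers, 4 of 7 tested rose and 1 fell in cortex TRAP over cortex input, and 0 rose and 3 fell in PAP TRAP over cortex TRAP. Over all genes the shares were 15.9% and 19.5%, then 19.3% and 14.6%, and in the bin of the shortest genes 23.4% were lower between the purifications. Dbi, the acyl-CoA-binding protein, stood at 329.7, 876 and 432 normalized CPM in PAP TRAP and at 121, 121 and 75.7 in its input. It was 5.17-fold higher in PAP TRAP than in that input (log2 2.37 ± 0.32, edgeR adjusted p = 0.000583), 27.3-fold higher in cortex TRAP than in cortex input (log2 4.77 ± 0.36, edgeR adjusted p = 1.05e-08) and 3.52-fold lower in PAP TRAP than in cortex TRAP (log2 -1.82 ± 0.31, edgeR adjusted p = 0.000178). With offsets corrected for exon length the cortex value was 4.03 and the last value -0.74, which was not called. Fabp5, a relative of Fabp7, was 5.57-fold lower in PAP TRAP than in cortex TRAP (log2 -2.48 ± 0.52, edgeR adjusted p = 0.00118), and -3.22 on the log2 scale without PAP TRAP replicate 2.

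Sterol carriers and enzymes of cholesterol turnover were split. Of 17 tested, 5 rose and 6 fell in cortex TRAP over cortex input, and 4 rose and 2 fell in PAP TRAP over cortex TRAP. Over all genes, 15.9% were higher and 19.5% lower in the first comparison, and 19.3% and 14.6% in the second. Npc1, the membrane protein that takes cholesterol from Npc2, stood at 10.5, 18.7 and 22.6 normalized CPM in cortex input, 53.9, 61.1 and 52.4 in cortex TRAP, 53.2, 48.4 and 65.4 in synaptoneurosome input, and 50.4, 24.5 and 68.5 in PAP TRAP. Like Npc2, it was higher in cortex TRAP and in synaptoneurosome input than in cortex input, by 1.69 ± 0.36 and 1.69 ± 0.37 on the log2 scale (edgeR adjusted p = 0.00112 and 0.00554), and the second call was lost without cortex input replicate 1. The first was 2.52 with offsets corrected for exon length. The enzymes Nceh1, which hydrolyses cholesteryl esters, and Cyp46a1, the cholesterol 24-hydroxylase of neurons, fell in cortex TRAP by 2.95 ± 0.35 and 2.24 ± 0.39. In PAP TRAP over cortex TRAP they rose by 4.29 ± 0.37 and 3.36 ± 0.41, with edgeR adjusted p of 3.63e-08 and 3.06e-06. Neuron markers moved in the same directions, and their part was not tested.

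Ttpa belongs to the CRAL-TRIO family of lipid carriers, of which 8 other genes were tested. In cortex TRAP over cortex input 3 rose and 3 fell (over all genes 15.9% and 19.5%). Rlbp1, a carrier of retinaldehyde, was 10.9-fold higher (log2 3.45 ± 0.76, edgeR adjusted p = 0.00138), and Sec14l2 5.77-fold higher (log2 2.53 ± 0.56, edgeR adjusted p = 0.00151). Without cortex input replicate 3 or cortex TRAP replicate 2, Rlbp1 stood at 2.85 and 2.82. In PAP TRAP over cortex TRAP, Sec14l2 was 4.88-fold lower (log2 -2.29 ± 0.56, edgeR adjusted p = 0.00392). Atcay, expressed in neurons, was 6.46-fold higher and Ttpal 3.54-fold higher, with edgeR adjusted p of 1.51e-05 and 0.00204.

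Of 13 nuclear receptors and regulators of lipid export and synthesis, 7 rose and 1 fell in cortex TRAP over cortex input (over all genes 15.9% and 19.5%). Insig1, which holds back sterol-driven transcription, was 6.58-fold higher (log2 2.72 ± 0.40, edgeR adjusted p = 2.3e-05) and the receptor Ppard 4.89-fold higher (log2 2.29 ± 0.36, edgeR adjusted p = 4.37e-05). Pparg had 90, 32 and 93 counts in cortex input and 0 in all 3 cortex TRAP libraries. In PAP TRAP over cortex TRAP, Insig1 was 2.35-fold lower (log2 -1.23 ± 0.38, edgeR adjusted p = 0.0167), with groups that overlapped and a call lost without cortex TRAP replicate 1 or 3 or PAP TRAP replicate 1, with both groups fitted alone, or with offsets corrected for exon length (-0.66).

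**Figure D5:**
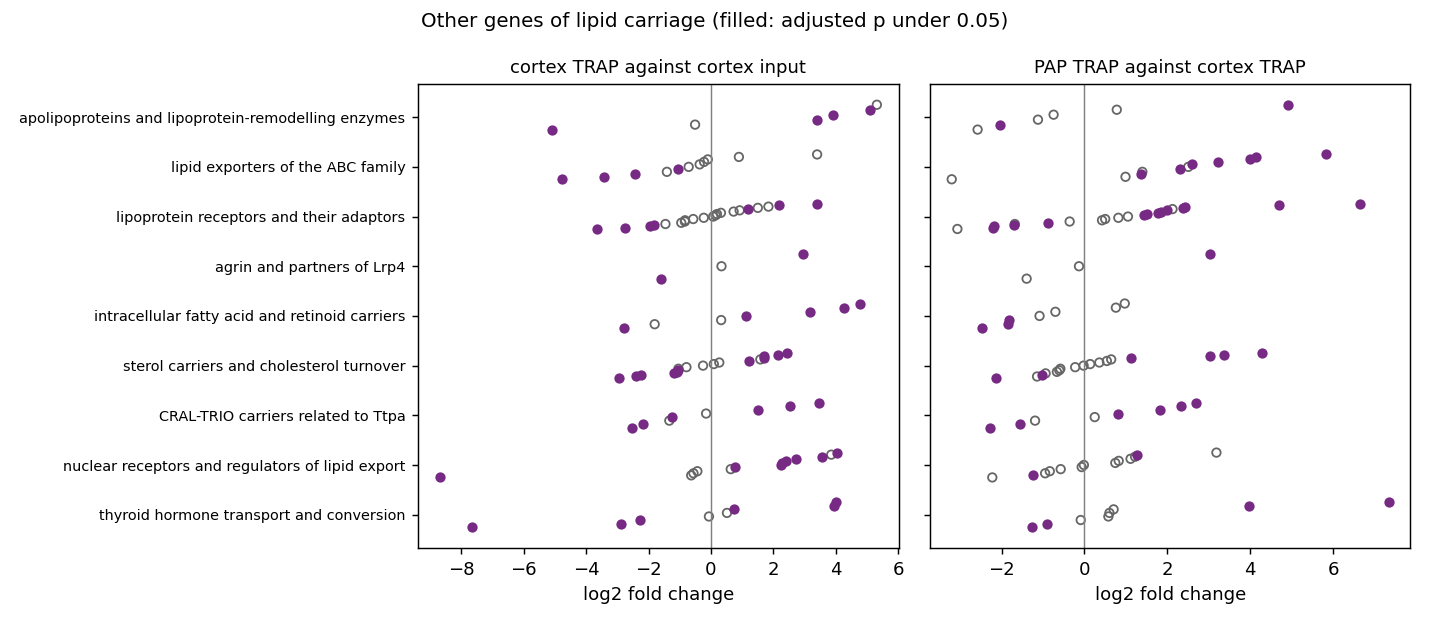
Log2 fold changes of the 94 related genes tested, by list, for cortex TRAP against cortex input and PAP TRAP against cortex TRAP; each point is 1 gene, filled where its adjusted p was under 0.05. Exporters of the ABC family lie mostly above 0 in the second panel (7 of 11 called higher), while fatty acid and retinoid carriers hold no filled point above 0 there.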

How the data were processed

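The deposited files hold whole-number counts per gene, which the authors had not normalized, with 5 rows for reads of no gene (20.3% to 55.5% of each library, left out here). Per the labels' protocols, cDNA from 2 ng of RNA was amplified by SPIA, and 500 ng in fragments of about 200 bp were made into libraries. The submitters' processing notes name HTSeq, STAR, Bowtie2 and Trimmomatic 0.32. Genome build, gene models and strandedness were not given in the sources used here. Reads of overlapping antisense genes therefore cannot be told apart. No molecular identifiers are named, so counts are not independent molecules.

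Identifiers were matched to GENCODE M21 (GRCm38), which gave 40254 of 41388 a symbol and a length. All 12 libraries were fitted with 1 mean per group by edgeR 4.0.16 (R 4.3.3; TMM, filterByExpr with a minimum count of 10 and total of 15, quasi-likelihood F test). In all, 5 comparisons were made: 4 between groups, and the difference of both enrichments over input. P-values were Benjamini-Hochberg adjusted over 13364 genes and called at 0.05. Intervals of 95% rest on the SE of the fit. Likeness used log2(CPM + 0.5) and genes with a mean of at least 3. Genes named were all 9 members, their 3 most like genes, and of each related list up to 2 called higher and 2 lower by smallest p, from which some were left out for length. The members and all lists were chosen with earlier results of these data known. The fitting script was tested on simulated data for PAP TRAP over its input. It recovered 34 of 187 changed genes and called 0 unchanged ones. Of genes changed by 1 on the log2 scale it recovered 2.13%, and of those changed by 2 34.4%. A gene not called in that comparison may therefore still differ. Alternatives were RLE scaling, no filter, DESeq2 1.42.0, fits of only the groups compared, a block for the replicate number and each library left out. No mitochondrial genes was another, and offsets corrected for length or GC content (loess span 0.3, 99.4% of genes with a value) were added after seeing the data. Promoter windows are from RefSeq (GRCm38.p6), and 0 pairs of libraries held identical values.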

Additional observations from a re-analysis of the deposited data

Results flagged for a closer look

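For 8 of the 9 genes the enrichment over input was smaller in the synaptic layer than in cortex, as measured by the interaction term of the edgeR fit (log2 fold change of PAP TRAP over synaptoneurosome input minus that of cortex TRAP over cortex input). The log2 difference was -3.53 ± 0.40 for Apoe, -3.05 ± 0.35 for Clu and -2.58 ± 0.63 for Abca1. For Lrp4 it was -2.03 ± 0.51, for Fabp7 -2.57 ± 0.68 and for Npc2 -2.77 ± 0.56. The 2 largest were -4.61 ± 0.82 for Ttpa and -4.78 ± 0.78 for Ttr. Lrp1 was the exception, at 0.15 ± 0.36 with a 95% interval of -0.61 to 0.91, but with offsets corrected for exon length it was -1.25 and called lower too. Of all genes tested 20.2% were called in this comparison and 7.32% called lower, and the 8 genes are among the latter. All 15 astrocyte markers were called lower too, with a median of -3.13 against -2.77 for the 9 genes and 0.03 over all genes. Without cortex TRAP replicate 1 the values were -1.90 for Fabp7 and -3.88 for Ttpa, without cortex input replicate 1 -3.20 for Fabp7, without PAP TRAP replicate 2 -5.40 for Ttpa, and without synaptoneurosome input replicate 1 -4.02 for Ttr. Synaptoneurosome input held more astrocyte message than cortex input (summed markers 19609 to 21113 against 2874 to 3383 normalized CPM). The purifications differed as well. In the same difference 13 of 15 neuron markers (median 2.91) and 7 of 12 oligodendrocyte markers (median 2.24) were called higher, and 0 lower. The part of the inputs and that of the purifications in the smaller enrichment were not tested.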

How the results depend on the processing

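Over 45 fold changes of the 9 genes, 824 of 891 values under alternatives kept their direction and their side of the threshold, and 3 changed sign, from values that were not called. The 3 were Abca1 in PAP TRAP over cortex TRAP without cortex TRAP replicate 3 (0.13, with -0.56 as the lowest value when another library was left out), and Lrp1 in the difference of both enrichments with offsets corrected for length (-1.25, itself called lower) or GC content (-0.22). For the related genes named, 1686 of 1854 values kept direction and side and 0 changed sign. Members called in PAP TRAP over its input (3) numbered 7 without a filter, 5 with the replicate block, 5 without mitochondrial genes and 0 with GC offsets, and those called between the purifications (7) numbered 3 with length offsets. All genes called in PAP TRAP over its input (605) numbered 1253 by DESeq2 and 270 with GC offsets, and related genes (5) numbered 11 by DESeq2, 3 with the compared groups alone and 2 with GC offsets. All genes called between the inputs (1246) numbered 2035 by DESeq2 and 2251 with the compared groups alone. The cause of these shifts was not tested.

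Leaving out 1 library at a time gave 8 to 9, 1 to 4, 5 to 7, 6 to 7 and 8 to 8 members called in cortex TRAP over input, PAP TRAP over input, PAP TRAP over cortex TRAP, between inputs and in the difference. For related genes it gave 43 to 54, 1 to 5, 34 to 49, 9 to 25 and 22 to 33, and for all genes 3859 to 5093, 292 to 740, 3566 to 4673, 608 to 1393 and 2161 to 2999. The lowest counts for PAP TRAP over input came without synaptoneurosome input replicate 3 (all genes, 292), PAP TRAP replicate 2 (related genes, 1) and synaptoneurosome input replicate 1 (members, 1), and for the inputs without cortex input replicate 1 (608 and 9).

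Leaving out mitochondrial genes shifted the median of all genes by 0.11 in PAP TRAP over its input, 0.16 in PAP TRAP over cortex TRAP and 0.11 in the difference, and calls in PAP TRAP over its input went from 401 higher and 204 lower to 573 and 151. Libraries with the same replicate number deviated together only weakly, as 0 of 18 pairs had a correlation over 0.1 (0.01 to 0.07). The correlation was positive in all 18, however, and in 15 of them it was higher than with either other replicate number. With the replicate block, Ttr in PAP TRAP over its input was called lower (-1.33), as it was without a filter (-1.32), and all genes called numbered 653 in PAP TRAP over its input and 4564 in PAP TRAP over cortex TRAP. The compared groups alone could not be fitted for the difference, which uses all groups. Depth limits the synaptoneurosome inputs most, where Ttpa rested on 8 to 36 counts.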

Other observations

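Ttr is a carrier of thyroid hormone, and 8 of 9 listed genes of thyroid hormone transport and conversion were tested. In cortex TRAP over cortex input 3 rose and 3 fell (over all genes 15.9% and 19.5%). Dio2, the deiodinase that makes active hormone in astrocytes, was 16.1-fold higher there (log2 4.01 ± 0.37, edgeR adjusted p = 1.02e-07), and Slco1c1, a thyroxine transporter of astrocytes and brain endothelium, 15.2-fold higher (log2 3.93 ± 0.44, edgeR adjusted p = 9.57e-07). Slc7a8, an amino acid transporter that also carries thyroid hormone, was 7.29-fold lower (log2 -2.87 ± 0.40, edgeR adjusted p = 1.18e-05), and -3.72 on the log2 scale without cortex TRAP replicate 2.

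The same genes were compared in the synaptic layer. Between the inputs, Dio2 was 8.13-fold higher in synaptoneurosome input (log2 3.02 ± 0.36, edgeR adjusted p = 2.27e-05) and Slco1c1 4.64-fold higher (log2 2.21 ± 0.42, edgeR adjusted p = 0.00193), where the Ttr groups overlapped. In PAP TRAP over cortex TRAP, Slc7a8 was 15.8-fold higher (log2 3.98 ± 0.41, edgeR adjusted p = 4.4e-07; 4.83 without cortex TRAP replicate 2), and Slco1c1 was 2.40-fold lower (log2 -1.26 ± 0.39, edgeR adjusted p = 0.0186), a call lost without cortex TRAP replicate 1 or 3 or PAP TRAP replicate 1. The enrichment over input was smaller in the synaptic layer than in cortex for Dio2 (log2 -3.11 ± 0.48, edgeR adjusted p = 0.000113) and Slco1c1 (log2 -3.48 ± 0.57, edgeR adjusted p = 0.000227).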
